A study of Mus musculus with 12 samples.

Results

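The transcripts described here are those of the mitochondrial genome, chosen as every gene whose symbol begins with mt- in the gene count matrix of sorted embryonic mouse submandibular gland cells. The rule found 37 genes among 43280: 2 ribosomal RNAs, 22 transfer RNAs and 13 protein-coding genes. The glands came from embryos at embryonic day 15 of the strain Tg(KRT5-Venus)1Sgkd, in which the fluorescent protein Venus is driven by the keratin 5 (KRT5) promoter, and every group carries this transgene. E-cadherin+ epithelial cells were sorted by surface Kit, a receptor tyrosine kinase, and by Venus (K5), which split each Kit class into K5+ and K5- cells, 4 groups (Kit+ K5+ cells, Kit+ K5- cells, Kit- K5+ cells, Kit- K5- cells) of 3 libraries, read as single-end reads of 50 bases from total RNA. No label says whether the 3 libraries of a group came from separate litters or pooled glands, so p-values measure only the spread between these libraries, which may be technical.

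The mitochondrial genome is a small circle that is transcribed from both strands into long precursors. Transfer RNAs lie between most of the other genes, and their excision releases the ribosomal RNAs and the messengers. The 13 proteins are core subunits of the respiratory chain and the ATP synthase: the Nd genes belong to complex I, mt-Cytb to complex III, the Co genes to complex IV and the Atp genes to complex V. All other subunits of these complexes, the proteins of the mitochondrial ribosome and the enzymes that transcribe and process mitochondrial RNA are encoded in the nucleus.

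Over the 12 libraries 20599398 counts fell on the 37 genes. The ribosomal RNAs mt-Rnr1 (12S) and mt-Rnr2 (16S) took 79.0% of them, the protein-coding genes 21.0% and the transfer RNAs 0.0493%, or 10164 counts. Counts above 0 were seen for 30 of the 37 genes in at least 1 library and for 25 in all 12. The 7 genes at 0 in every library were mt-Nd3 and the transfer RNA genes mt-Td, mt-Tg, mt-Th, mt-Tk, mt-Tw and mt-Ty. A count of 0 allows up to 3 counts, which is 0.219 to 0.537 CPM (counts per 1000000 library counts) at these library sizes, and this limit covers counting error only.

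The mitochondrial transcripts were compared with copies of mitochondrial DNA in the nuclear genome. Of all 50-base stretches of each mitochondrial transcript, those found letter for letter in a nuclear transcript of the GENCODE M21 annotation (GRCm38) were counted. Of the 15 nuclear genes with such a match, 7 lie side by side on chromosome 1, at 24611535 to 24616197 on the minus strand, and repeat the stretch of the mitochondrial genome from mt-Co1 to mt-Nd4. To show how close the copies are, the first 60 bases of mt-Co3 (chrM:8607-8666, plus strand) stand beside Gm28437 (chr1:24613912-24613971, minus strand), and the 60 bases of mt-Co1 with the most differences (chrM:5787-5846) stand beside Gm13340 (chr2:22589129-22589188, minus strand). Capitals mark the bases that differ.
mt-Co3: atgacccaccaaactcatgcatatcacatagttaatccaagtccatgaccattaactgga
Gm28437: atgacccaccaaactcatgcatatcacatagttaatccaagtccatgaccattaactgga
mt-Co1: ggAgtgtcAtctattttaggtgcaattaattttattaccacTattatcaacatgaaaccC
Gm13340: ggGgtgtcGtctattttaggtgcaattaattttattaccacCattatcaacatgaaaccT
mt-Co3 and Gm28437 had 0 mismatches over 783 aligned bases, and mt-Co1 and Gm13340 had 37 over 1545, an identity of 97.6%.

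The genes whose 50-base stretches nearly all recur in the nucleus were, with mt-Atp8, the messengers with few or no counts. For mt-Co2, a core subunit of cytochrome c oxidase, 635 of 635 stretches matched and 1280 counts were recorded in all 12 libraries. For mt-Atp6 629 of 632 stretches matched, with 861 counts. For mt-Nd4l 245 of 248 matched, with 795 counts. For mt-Co3 734 of 735 matched, with 11 counts, and for mt-Nd3 293 of 299 matched, with 0 counts. mt-Nd4 and mt-Co1 were intermediate, with 827 of 1329 and 765 of 1496 stretches matched, and had 715696 and 911740 counts. mt-Nd1, mt-Cytb and mt-Nd6 had no match, and mt-Nd2 and mt-Nd5 had 81 of 989 and 135 of 1775. These 5 genes held 62.3% of the protein-coding counts, mt-Co1 and mt-Nd4 37.7%, and the 5 nearly fully matched genes together 0.0682%. Of the nuclear copies, Gm28437, which matches mt-Co3, had 17 counts, Gm10925 (mt-Atp6) 625 and Gm10222 (mt-Nd4l) 442. Gm28661 and Gm13341, which both match mt-Co2, had 339 and 314. Gm28438, which matches mt-Nd3, had 817 counts, 8 to 203 per library, where mt-Nd3 had 0. The 14 copies in the count matrix had 10452 counts together. The treatment of reads that fit several places is not given in the labels, so its part in these low counts was not tested. The levels of mt-Co2, mt-Co3, mt-Atp6, mt-Nd3 and mt-Nd4l are therefore not read as levels of the messengers.

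**Figure D1:**
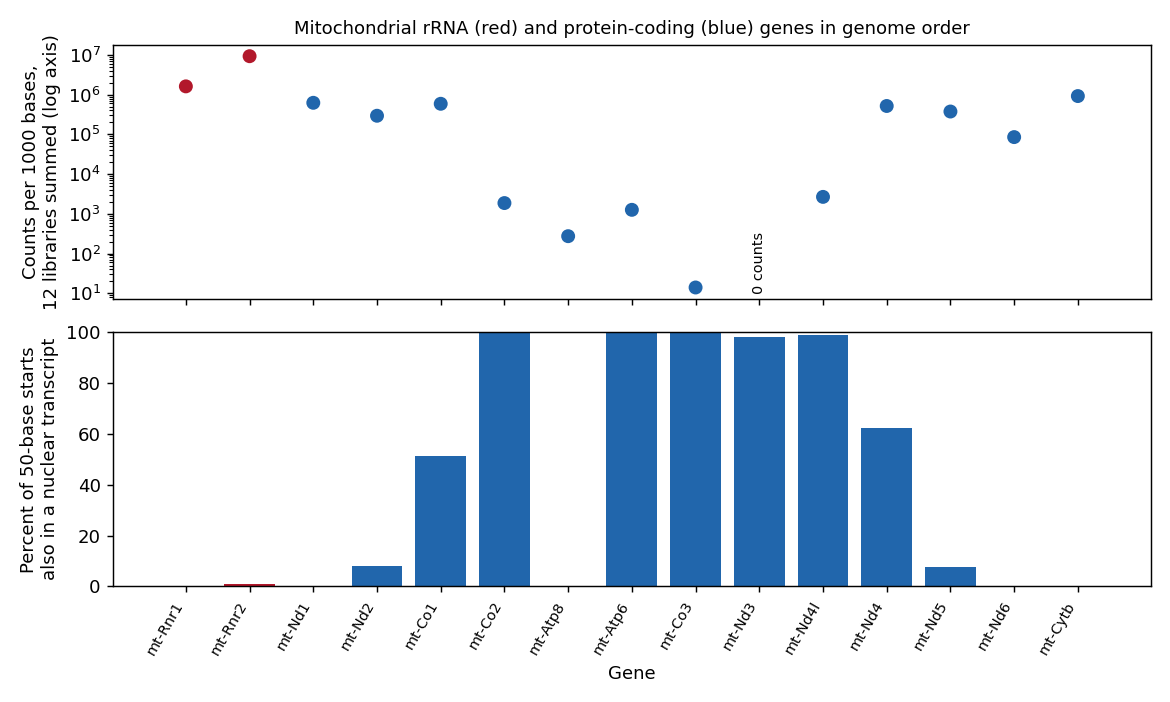
Upper panel: counts per 1000 bases of gene, summed over 12 libraries, on a log axis; lower panel: percent of a gene's 50-base starts that also occur exactly in an annotated nuclear transcript. Genes stand in genome order, ribosomal RNAs in red and protein-coding genes in blue; the 5 genes with nearly all starts matched sit far below the other messengers, as does mt-Atp8, which has no match.

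mt-Atp8, a subunit of the ATP synthase, had 56 counts and no annotated nuclear match. It lies in the same stretch of the genome, between mt-Co2 and mt-Atp6, and the nuclear sequence between their copies Gm28661 and Gm10925 was not used here. Its last 43 bases (chrM:7927-7969) are also the first 43 of mt-Atp6, so a read there belongs to 2 genes. Capitals mark the start codon of mt-Atp6 and the stop codon of mt-Atp8.
mt-Atp8 and mt-Atp6 overlap: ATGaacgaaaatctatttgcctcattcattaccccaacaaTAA
Transfer RNA genes in that stretch also had few counts. The 5 transfer RNA genes between mt-Co1 and mt-Nd4 (mt-Ts1, mt-Td, mt-Tk, mt-Tg and mt-Tr, 65 to 70 bases) had 5 counts in all, and the other 17 genes (59 to 75 bases) had 10159. Of these 17, 3 had 0 counts.

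The sort labels were checked on the sorted genes. Kit took 0.0255 to 0.0536% of counts in Kit+ libraries and 0.00111 to 0.00240% in Kit- libraries. Krt5 was lowly counted everywhere, and the K5+ library was the higher in 6 of 6 pairs of the same Kit sort and run of library numbers (1 to 4, 5 to 8 and 9 to 12 in the titles). It took 0.00116 to 0.00231% in Kit- K5+ libraries, all above the Kit- K5- libraries at 9.47e-05 to 0.000773%. The Kit+ K5+ libraries, at 0.000149 to 0.000994%, overlapped the Kit+ K5- libraries at 3.82e-05 to 0.000487%. Cdh1, which encodes E-cadherin, took 0.0165 to 0.0214% in Kit- K5- libraries and 0.0437 to 0.109% in the others. Library totals ran from 5589037 to 13724364 counts.

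The share of counts on mitochondrial genes was on average lowest in Kit- K5- cells. The 3 Kit- K5- libraries had 5.59%, 9.40% and 12.2%, and the Kit- K5+ libraries had 24.2%, 30.6% and 29.1%. The 2 groups do not overlap. The Kit+ K5+ libraries had 22.5%, 17.8% and 30.9% and the Kit+ K5- libraries 11%, 13.4% and 27.3%, which do overlap. Within the libraries numbered 1 to 4, 5 to 8 and 9 to 12 by their titles, the K5+ library was above the K5- library of the same Kit sort in 6 of 6 pairs. Across the 4 groups an exact permutation test gave p = 0.0173, and 0.104 after Benjamini-Hochberg adjustment over 12 shares and ratios. For K5, with labels exchanged within each Kit sort, the difference was 1.34 on the log2 odds scale (two-sided exact permutation p = 0.015, adjusted over 24 tests 0.18, smallest possible p 0.005). For Kit it was 0.34 (exact permutation p = 0.44). With labels exchanged over all libraries (4 groups) or within a Kit or K5 sort, no share or ratio passed 0.05 after adjustment. With labels exchanged only within the runs of library numbers, 3 of the 12 passed over the 4 groups: the mitochondrial share and its ribosomal part (exact permutation, adjusted p = 0.0208 each) and the ratio of ribosomal to protein-coding counts (0.0347). A test of 3 against 3 libraries cannot go below 0.10.

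By class, ribosomal RNA took 4.30%, 7.43% and 8.63% of counts in Kit- K5- libraries against 20.9%, 26.3% and 22.3% in Kit- K5+ libraries. In Kit+ K5+ libraries it took 17.2%, 15.1% and 23.4%, and in Kit+ K5- libraries 8.43%, 11% and 19.7%. The exact permutation test over the 4 groups gave p = 0.00513, adjusted 0.0616. Ribosomal RNA removal is not given for these libraries, and its part in the ribosomal shares and ratios was not tested. Protein-coding counts took 1.29%, 1.97% and 3.58% in Kit- K5- libraries, and 3.37%, 4.32% and 6.73% in the Kit- K5+ group. They took 5.28%, 2.76% and 7.42% in Kit+ K5+ libraries and 2.53%, 2.44% and 7.55% for Kit+ K5- cells. The library of numbers 9 to 12 was the highest of its group in all 4 groups for the protein-coding share. The K5 difference in that share was 0.80 on the log2 odds scale (exact permutation p = 0.105, adjusted 0.36).

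**Figure D2:**
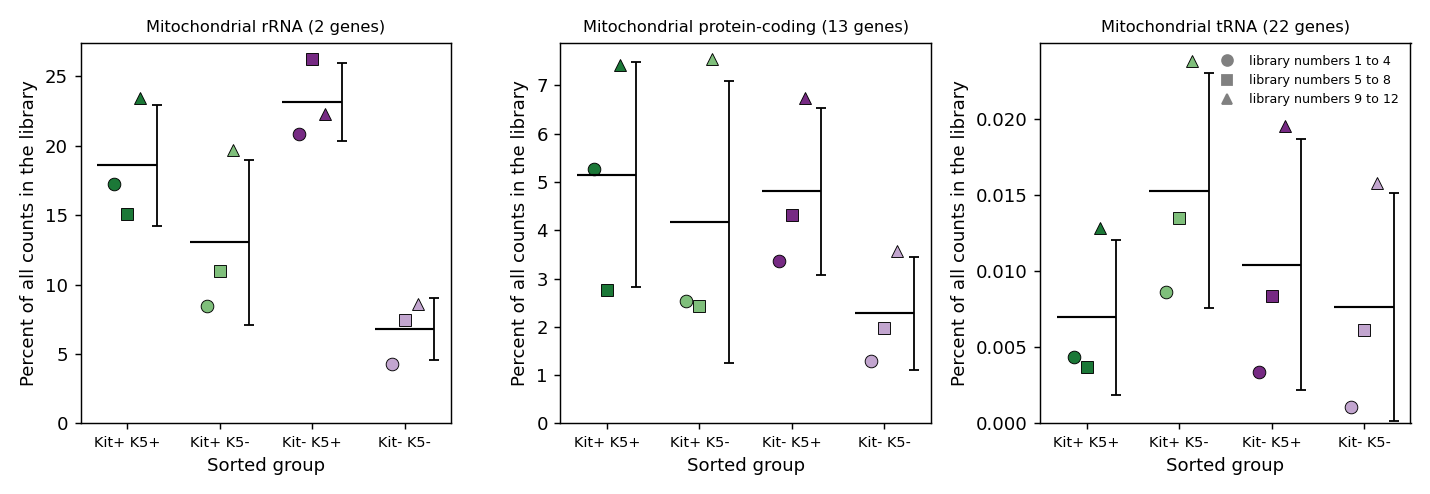
Percent of a library's counts on mitochondrial ribosomal RNA, protein-coding and transfer RNA genes, by sorted group (the 3 vertical axes differ). Each symbol is 1 library, its shape gives the library numbers, lines are means and bars SD (n = 3); for ribosomal RNA the Kit- K5- group has the lowest mean, at 4.30% to 8.63%, and its highest library lies just above the lowest Kit+ K5- library at 8.43%.

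Gene by gene, 1 of the 4 pairwise comparisons had calls among mitochondrial genes, that of K5+ with K5- cells in the Kit- class. The fit (edgeR quasi-likelihood, 17030 genes, Benjamini-Hochberg adjusted p under 0.05) held 26 mitochondrial genes: 2 ribosomal RNAs, 14 transfer RNAs and 10 messengers. mt-Rnr1, the RNA of the small mitochondrial ribosomal subunit, had 27665, 27231 and 23404 CPM (scaled by TMM, a trimmed mean across libraries) in Kit- K5+ libraries and 3570, 4247 and 7323 in Kit- K5- libraries. Every Kit- K5+ library was above every Kit- K5- library. The log2 fold change was 2.37 ± 0.45 (SE), with an edgeR adjusted p of 0.00334. mt-Rnr2, the RNA of the large subunit, had 179506, 278875 and 215046 in Kit- K5+ libraries and 35090, 62987 and 72427 in Kit- K5- libraries, again without overlap. Its log2 fold change was 1.98 ± 0.40 (edgeR adjusted p = 0.00488). mt-Co1, the catalytic subunit of cytochrome c oxidase, had 8071, 13915 and 14938 against 2826, 4034 and 5806, and rose by 1.54 ± 0.47 on the log2 scale (edgeR adjusted p = 0.0379). These 3 of 26 rose and 0 fell, and over all genes 7.38% were called higher and 16.5% in either direction.

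The other messengers had positive values without passing the test. mt-Cytb had 9629, 11415 and 16294 CPM in Kit- K5+ libraries and 2726, 4544 and 8357 in Kit- K5- libraries, a log2 difference of 1.26 ± 0.50 (edgeR adjusted p = 0.105). mt-Nd1 had 0.89 ± 0.51 and mt-Nd6 0.98 ± 0.54 on the same scale. All 10 messengers tested were positive, with a median of 1.32, and so were the 7 read as levels (without mt-Co2, mt-Atp6 and mt-Nd4l), with a median of 1.26, against 0.04 over all genes. Among the 7, mt-Nd6 lies on the minus strand. The strand setting of the counting is not stated, so its counts may include reads of the opposite transcript. The median of these 7 was 0.93 to 1.75 with 1 library of the compared groups left out. Of the 14 transfer RNAs 9 were positive, with a median of 0.35, which was -0.25 without Kit- K5+ replicate 3, -0.24 without Kit- K5- replicate 1, and 1.64 with Kit- K5- replicate 3 left out. The groups did not overlap for 8 of 26 genes, and they did not overlap for 37.1% of all genes. With the library numbers as a block, 11 of 26 rose, against 23.8% of all genes called and 11% called higher: both ribosomal RNAs, mt-Co1, mt-Cytb, mt-Nd1, mt-Nd2, mt-Nd4, mt-Nd4l, mt-Nd5, mt-Nd6 and mt-Tl1. Of these, mt-Nd4l is among the genes not read as levels. In that fit mt-Cytb had 1.36 ± 0.29 (edgeR adjusted p = 0.00483) and mt-Nd6 1.02 ± 0.25 (edgeR adjusted p = 0.0096). mt-Co1 lost its call without Kit- K5+ replicate 2 or 3 or Kit- K5- replicate 1 or 2 (edgeR adjusted p 0.0978 to 0.147) and without libraries 1 to 4 (0.0709), and no mitochondrial gene was called without libraries 5 to 8, where 3.07% of all genes were called.

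**Figure D3:**
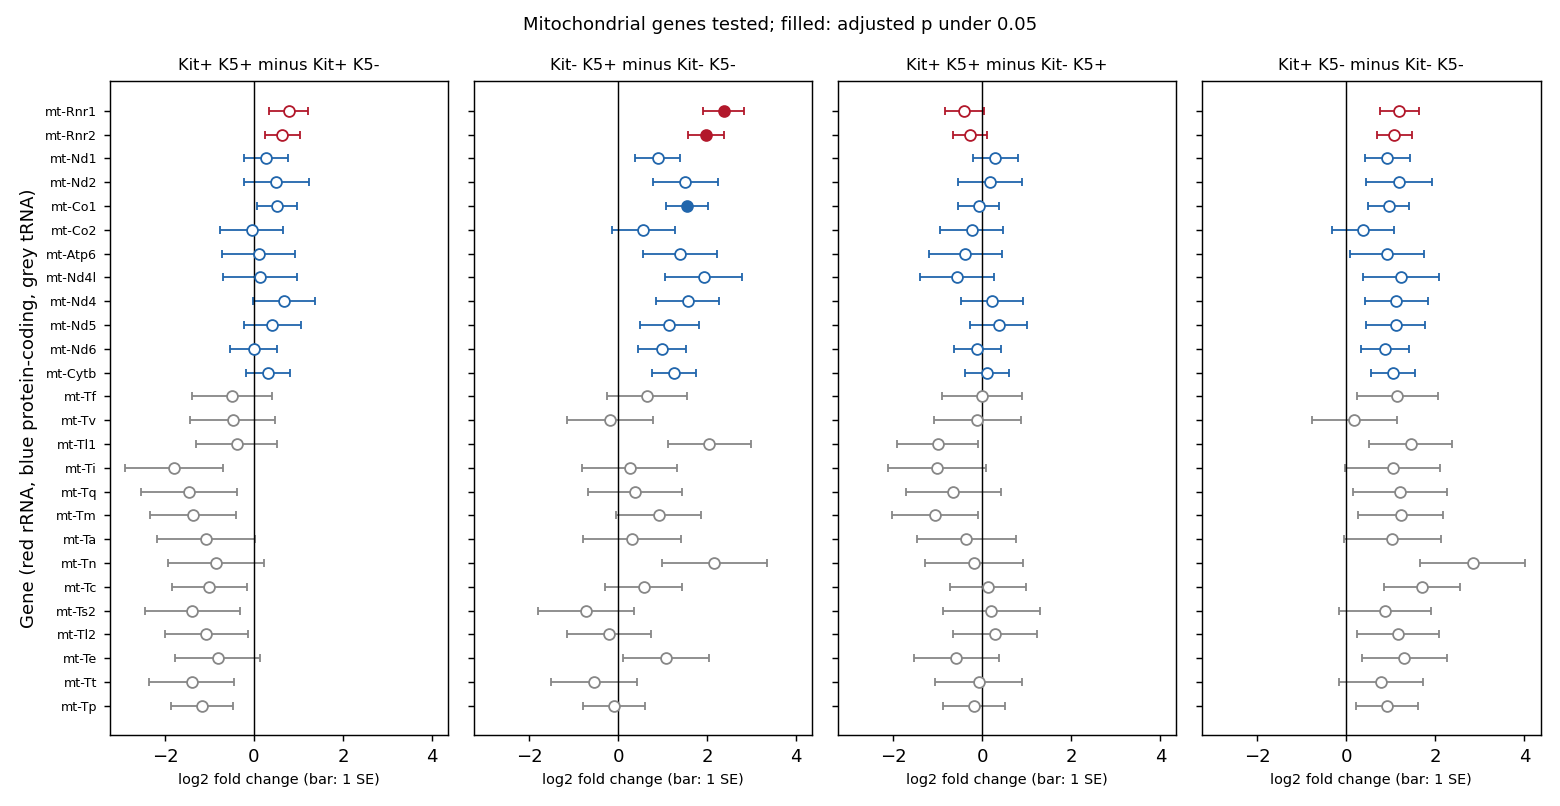
Log2 fold change of each mitochondrial gene tested (points, bars 1 SE) in the 4 comparisons of sorted groups, with ribosomal RNAs in red, messengers in blue and transfer RNAs in grey. Filled points have an adjusted p under 0.05: mt-Rnr1, mt-Rnr2 and mt-Co1 in Kit- cells; in Kit+ cells all 14 transfer RNAs lie left of 0.

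Kit- K5- libraries also differed from the rest in their cells. CPM summed over 16 mesenchyme markers were 14750 to 24953 in Kit- K5- libraries and 561 to 1166 in the other 9, with all 16 above 0 in every group. The 18 general epithelial genes summed to 544 to 688 in Kit- K5- libraries and to 1499 to 3527 in the others. Erythroid markers were at 149 to 872 against 11 to 27, and 5 nuclear-retained RNAs, Malat1 among them, at 8566 to 11254 against 3569 to 6824. Leukocyte and macrophage markers (13 genes) summed to 218 to 1118 in Kit- K5- libraries against 50.1 to 66.5 in Kit- K5+ libraries. They were not particular to Kit- K5- cells: Kit+ K5- libraries had a median of 113.4 and a highest value of 633.2, which overlaps. In Kit- K5+ over Kit- K5- cells 9 of 13 fell, with a median of -5.21. Neuron markers (10 genes) summed to 88.3 to 212 in Kit- K5- libraries against 3.77 to 17.1 in Kit- K5+ libraries, and 6 of 10 fell, with a median of -3.46. Over all genes in Kit- K5+ over Kit- K5- cells, 16.5% were called in either direction and 7.38% were called higher. Genes of the dissociation stress list summed to 5267 to 10580 in Kit- K5- libraries against 2390 to 6430 in the other 9, which overlap. When libraries were scaled to the 18 epithelial genes, an alternative added after the data were seen, the median of all genes in this comparison moved to -1.70. mt-Rnr1 then had a log2 difference of 0.67 (edgeR adjusted p = 0.291), mt-Rnr2 one of 0.26 (0.688) and mt-Co1 one of -0.15 (0.819), and mt-Tp was called lower, where 67.5% of all genes were called. Mitochondrial share and cell makeup cannot be told apart in these libraries, nor can fewer cells of a type be told from less RNA per cell.

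In Kit+ cells no mitochondrial gene passed the K5 comparison, and 0% of all genes did. Without the block, no mitochondrial gene had an unadjusted p under 0.05, and DESeq2 and limma-voom called 0. With the library numbers as a block, 11 of 26 had an unadjusted p under 0.05, of which 4 were positive (both ribosomal RNAs, mt-Co1 and mt-Nd4) and 7 were negative transfer RNAs. None of these passed, with a lowest edgeR adjusted p of 0.327 (mt-Tp), and 0.317% of all genes were called after adjustment. The share of all genes with an unadjusted p under 0.05 is not given here. The count of 11 is therefore not read as a result about the mitochondrial genes. mt-Rnr1 had 18930, 12472 and 27921 CPM in Kit+ K5+ libraries and 5758, 7598 and 21248 in Kit+ K5- libraries, which overlap, with a log2 difference of 0.78 ± 0.44 (edgeR adjusted p = 0.76). The K5+ library was the higher in 3 of 3 runs of library numbers. Both ribosomal RNAs and 8 of 10 messengers had positive values, with a messenger median of 0.29, and of the 7 messengers read as levels 6 were positive, with a median of 0.42. Without Kit+ K5+ replicate 3 only 2 of the 7 were positive and their median was -0.12, and without Kit+ K5- replicate 3 it was 1.35 with all 7 positive. All 14 transfer RNAs had negative values, from -1.79 to -0.39 with a median of -1.07, while the median of all genes was -0.04. The transfer RNA median was -2.14 without Kit+ K5+ replicate 3, and it was -0.32 with Kit+ K5- replicate 3 left out, where 4 of 14 were positive. mt-Tt, the threonine transfer RNA, was the only one whose groups did not overlap, at 2.21, 0.87 and 4.91 in Kit+ K5+ libraries and 5.81, 6.74 and 8.45 in Kit+ K5- libraries (log2 difference -1.40 ± 0.96, edgeR adjusted p = 0.815). The groups did not overlap for 10.8% of all genes. Mast cell markers summed to 108 to 6180 CPM in Kit+ K5- libraries and 3 to 45 in Kit+ K5+ libraries. Leukocyte and macrophage markers had a median sum of 113.4 CPM (highest 633.2) in Kit+ K5- libraries and 50.13 (highest 56.96) in Kit+ K5+ libraries. The part of both lists in these values was not tested.

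The Kit comparisons had no calls on the same test. In K5- cells all 26 genes were positive in Kit+ cells over Kit- cells, with medians of 1.1 for ribosomal RNAs, 1.00 for messengers and 1.15 for transfer RNAs, and 0 passed, where 21.3% of all genes were called. The median over the 26 was 1.09, and it was 0.21 without Kit+ K5- replicate 3, 0.68 without Kit- K5- replicate 1, and 1.89 with Kit- K5- replicate 3 left out. Of the 7 messengers read as levels the median was 1.05, and without Kit+ K5- replicate 3 only 3 of the 7 were positive, with a median of -0.04. mt-Rnr2 had 64261, 96716 and 197952 CPM in Kit+ K5- libraries, of which the lowest lies below the highest of Kit- K5-, and a log2 difference of 1.07 ± 0.39 (edgeR adjusted p = 0.068). Of the 26 genes, 3 had an unadjusted p under 0.05, DESeq2 called 2 and limma-voom 0. DESeq2 called 23.5% of all genes and limma-voom 24.2%. For the unadjusted p the share of all genes is not given, so that count is not read as a result. The groups did not overlap for 1 gene, mt-Tn, and for 41.3% of all genes. mt-Tn had few counts, with 10, 7 and 25 in Kit+ K5- libraries and 0, 2 and 6 in Kit- K5- libraries. With the library numbers as a block 12 of 26 rose, against 29.2% of all genes called and 14.3% called higher: mt-Rnr1, mt-Rnr2, mt-Co1, mt-Cytb, mt-Nd1, mt-Tc, mt-Tf, mt-Tl1, mt-Tl2, mt-Tm, mt-Tp and mt-Tq. mt-Tc, the cysteine transfer RNA, had 1.89 ± 0.60 in that fit (edgeR adjusted p = 0.0314). On the epithelial scale all genes had a median of -2.01 and the mitochondrial genes one of -0.71, with 0 calls where 74% of all genes were called.

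In K5+ cells no mitochondrial gene had groups that did not overlap, where 20.5% of all genes did. Of the 26 genes 9 were positive, 0 passed where 0.658% of all genes did, and none had an unadjusted p under 0.05. DESeq2 and limma-voom called 0. mt-Rnr2 had 162217, 138136 and 256708 CPM in Kit+ K5+ libraries, which overlap the Kit- K5+ values, with a log2 difference of -0.27 ± 0.39 (edgeR adjusted p = 0.756). This comparison and those above share libraries. The difference between the K5 effects in Kit+ and Kit- cells was negative for all 26 genes and called for 0, where 4.02% of all genes were called. Of the 26, 2 had an unadjusted p under 0.05, and DESeq2 and limma-voom called 0. For mt-Rnr1 this difference was -1.59 (edgeR adjusted p = 0.177). With the library numbers as a block, 12 of 26 had an unadjusted p under 0.05, all negative. In that fit 4 were called, where 8.33% of all genes were called. They were mt-Tm (-2.62, edgeR adjusted p = 0.0222), mt-Tl1 (-2.27, 0.0303), mt-Rnr1 (-1.62, 0.0368) and mt-Rnr2 (-1.32, 0.0437). The share of all genes with an unadjusted p under 0.05 is not given for this difference. The unadjusted counts of 2 and 12 are therefore not read as results about these genes.

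Among transfer RNAs, which carry amino acids to the ribosome and are cut out of the same precursors as the messengers, 5 of 22 held 71.3% of the counts. Their sequences are shown because the summed transfer RNA shares and ratios rest mostly on them. Capitals mark the anticodon, the triplet that reads the codon, found as the middle of a 7-base loop. They lie on chrM at 15356 to 15422 (mt-Tp, minus strand), 2676 to 2750 (mt-Tl1, plus), 3845 to 3913 (mt-Tm, plus), 1 to 68 (mt-Tf, plus) and 5192 to 5257 (mt-Tc, minus).
mt-Tp: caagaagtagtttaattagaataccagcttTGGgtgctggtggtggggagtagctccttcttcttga
mt-Tl1: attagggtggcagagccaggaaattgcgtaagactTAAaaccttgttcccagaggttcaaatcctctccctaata
mt-Tm: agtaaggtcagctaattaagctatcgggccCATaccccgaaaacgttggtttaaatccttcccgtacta
mt-Tf: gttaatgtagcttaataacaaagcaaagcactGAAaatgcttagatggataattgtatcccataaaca
mt-Tc: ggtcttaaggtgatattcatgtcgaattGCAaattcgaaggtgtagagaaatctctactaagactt
mt-Tp had 2225 counts over 12 libraries, mt-Tl1 2199, mt-Tm 1091, mt-Tf 1009 and mt-Tc 723. The 8 minus-strand transfer RNA genes held 40.0% of the counts and the 14 plus-strand genes the rest. The strand setting of the counting is not stated in any label, and without strand reads of a gene and of the opposite transcript cannot be told apart. The same holds for mt-Nd6, the only messenger on the minus strand.

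mt-Tp, the proline transfer RNA, had 9.50, 6.65 and 30.4 CPM in Kit+ K5+ libraries and 26.4, 29.4 and 48.5 in Kit+ K5- libraries. The Kit- K5+ libraries had 8.88, 19.2 and 24.5 and the Kit- K5- libraries 3.41, 16 and 36.3, so the groups overlap. mt-Tl1, the leucine transfer RNA that follows mt-Rnr2, had 11.1, 7.04 and 42.9 in Kit+ K5+ libraries and 8.14, 24.5 and 46.9 in Kit+ K5- libraries. It had 7.0, 28.7 and 86.1 in the Kit- K5+ group and 2.36, 7.81 and 19.3 in Kit- K5- libraries. In every group the library of numbers 9 to 12 was the highest and that of numbers 1 to 4 the lowest, other than Kit+ K5+, where numbers 5 to 8 were the lowest. Over the 4 libraries of each run, transfer RNA shares of all counts were 0.00106 to 0.00861%, 0.00373 to 0.0135% and 0.0128 to 0.0238%.

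Relative to messengers, transfer RNA counts were on average lowest in Kit+ K5+ cells. The ratio of transfer RNA to protein-coding counts was 0.000825, 0.00135 and 0.00173 in Kit+ K5+ libraries and 0.00341, 0.00553 and 0.00315 in Kit+ K5- libraries, which do not overlap. It was 0.00101, 0.00193 and 0.00290 in the Kit- K5+ group and 0.000819, 0.00312 and 0.00441 for Kit- K5- cells. The K5 difference was -0.99 on the log2 scale (exact permutation p = 0.085, adjusted 0.36). The ratio of ribosomal to protein-coding counts was 6.2, 6.08 and 3.31 in Kit- K5+ libraries and 3.33, 3.78 and 2.41 in Kit- K5- libraries. In Kit+ K5+ libraries it was 3.27, 5.47 and 3.16 and in Kit+ K5- libraries 3.34, 4.49 and 2.61. Its K5 difference was 0.43 (exact permutation p = 0.12, adjusted 0.36). The ratio of mt-Rnr2 to mt-Rnr1 averaged 9.61 ± 1.30 (SD, n = 3) in Kit+ K5+ libraries, 11.1 ± 1.71 for Kit+ K5- cells, 8.64 ± 1.94 for Kit- K5+ cells and 11.5 ± 2.87 for Kit- K5- cells, with a K5 difference of -0.31 (exact permutation p = 0.075, adjusted 0.36).

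**Figure D4:**
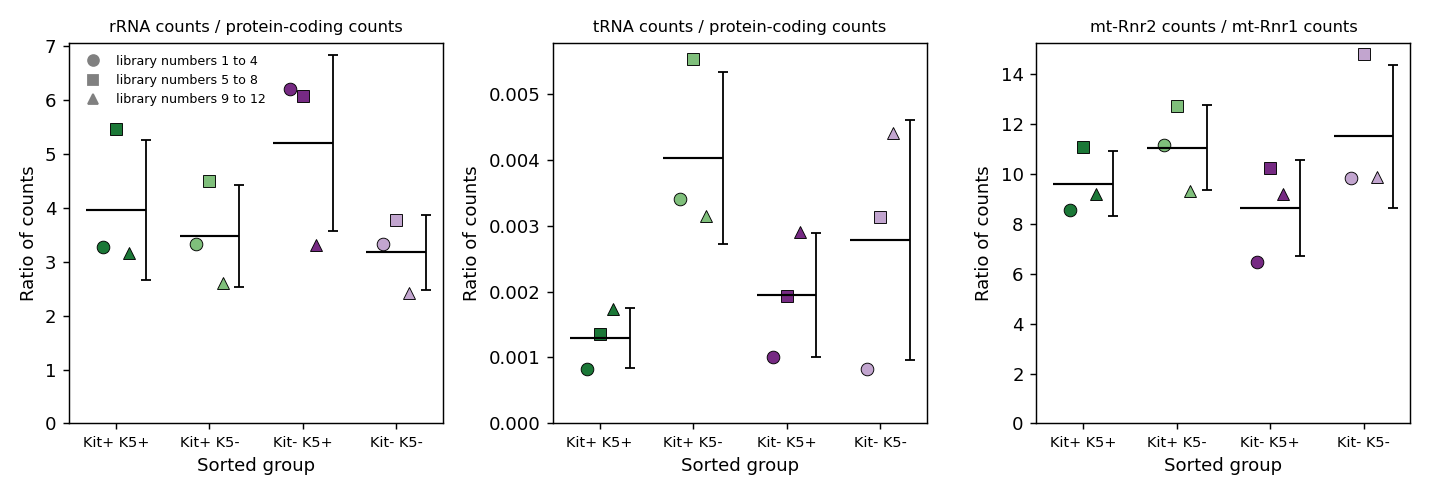
Ratios of summed counts in each library (symbols, shape by library numbers), with group means and SD (n = 3). The transfer RNA ratio runs from 0.000825 to 0.00173 in Kit+ K5+ libraries, below all 3 Kit+ K5- libraries; the other ratios overlap between most groups.

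Within the messenger pool mt-Cytb, the cytochrome b of complex III, held 25.1% of protein-coding counts on average over the 12 libraries (21.0 to 28.9%), mt-Co1 21.8% (17.6 to 27.6%), mt-Nd4 15.5% (11.7 to 20.2%), mt-Nd5 15.4% (12.1 to 18.2%), mt-Nd1 14.4% (10.4 to 17.9%), mt-Nd2 6.68% (3.90 to 8.99%) and mt-Nd6 1.09% (0.683 to 1.70%). These are shares of counts, not corrected for gene length or for nuclear matches. Of the 50-base stretches, 765 of 1496 in mt-Co1 and 827 of 1329 in mt-Nd4 matched the nucleus. The 5 nearly fully matched messengers held 0.0682% of the summed protein-coding counts. The gene and complex shares are therefore not read as an order of messenger levels. The complex I share ranged from 46.9 to 60.3% of protein-coding counts and was 56.5 to 60.3% in the 4 libraries numbered 9 to 12. Its K5 difference was -0.04 (exact permutation p = 0.785) and its Kit difference 0.08 (0.62) on the log2 odds scale. The complex IV share rests on mt-Co1, and the complex V share, at most 0.0344%, on few counts. mt-Nd6 held 0.786 to 0.924% in Kit+ K5+ libraries and 0.924 to 1.37% in Kit+ K5- libraries. It held 0.683 to 1.5% in the Kit- K5+ group and 1.04 to 1.70% in Kit- K5- cells, with a K5 difference of -0.39 (exact permutation p = 0.085, adjusted 0.36).

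Levels between genes were compared in CPM per 1000 possible 50-base read starts, for the 7 ribosomal and protein-coding genes with under 10% of starts matched in the nucleus, mt-Atp8 left out. The order was the same in 12 of 12 libraries except for the middle pair: mt-Rnr2, mt-Rnr1, mt-Cytb, mt-Nd1, then mt-Nd5 and mt-Nd2, then mt-Nd6. mt-Rnr2 averaged 90761 on this scale, mt-Rnr1 16305, mt-Cytb 9121, mt-Nd1 6205, mt-Nd5 3719, mt-Nd2 2984 and mt-Nd6 926. mt-Rnr2 exceeded mt-Rnr1 by a median factor of 5.83 (3.83 to 8.77). mt-Rnr1 exceeded mt-Cytb by a median factor of 1.59 (1.06 to 3.47). Whether ribosomal RNA was removed from these libraries is not given. The places of mt-Rnr2 and mt-Rnr1 are therefore places in counts and are not read as levels in the cells. mt-Nd5 was above mt-Nd2 in 10 of 12 libraries, with ratios from 0.828 to 2.10, so the order of these neighbours varied between libraries. The value of mt-Nd6 may include reads of the opposite transcript, as the strand setting is not stated.

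The nuclear genes that work with these transcripts were set beside them. In Kit+ K5- over Kit- K5- cells, where no mitochondrial gene was called and 10.2% of all genes were called higher, nuclear subunits passed the test upward in every complex: 11 of 35 for complex I, 2 of 4 for complex II, which is wholly nuclear, 7 of 9 for complex III, 8 of 15 for complex IV and 13 of 18 for complex V, with 0 lower. The mitochondrial count depends on the fit: with the library numbers as a block, 12 of 26 rose, where 14.3% of all genes were called higher. Cox5a, a complex IV subunit, averaged 67.9 ± 17.3 CPM (SD, n = 3) in Kit+ K5- libraries and 18.8 ± 6.40 in the Kit- K5- group, a log2 fold change of 1.85 ± 0.29 (edgeR adjusted p = 0.000627). Uqcrfs1, the Rieske iron-sulphur protein of complex III, rose by 1.12 ± 0.21 (edgeR adjusted p = 0.00219). Proteins of the large mitochondrial ribosomal subunit rose for 20 of 46 genes and of the small subunit for 5 of 29, and citric acid cycle enzymes for 10 of 16. Medians were 0.74 to 1.19 for complexes I to V, beside 1.1, 1.00 and 1.15 for mitochondrial ribosomal, messenger and transfer RNAs and 0.05 for all genes. These counts and medians moved with single libraries: without Kit+ K5- replicate 2, 1 of 35 genes rose for complex I, 0 of 4 for complex II, 6 of 9 for complex III, 4 of 15 for complex IV and 5 of 18 for complex V, and the medians were 0.46 to 0.96. Without Kit- K5- replicate 1 the counts were 3, 0, 6, 8 and 7, and they were 3, 0, 6, 6 and 8 when Kit- K5- replicate 3 was left out. Without Kit+ K5- replicate 3 the complex medians were 0.93 to 1.45, while the mitochondrial messenger median was -0.06. On the epithelial scale all genes had a median of -2.01, and 74% of all genes were called in either direction. There 0 of these nuclear genes rose. Those that fell were 26 of 35 for complex I, 4 of 4 for complex II and 6 of 9 for complex III. For complex IV 7 of 15 fell and for complex V 11 of 18, and the medians were -1.38 to -0.96.

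In Kit- K5+ over Kit- K5- cells the nuclear medians were smaller than those of the mitochondrial ribosomal RNAs and messengers. They ran from 0.20 for complex II to 0.62 for complex III, beside 2.18 and 1.32, and the mitochondrial ribosomal protein medians were 0.34 for the large and 0.15 for the small subunit. Calls were 4 of 35 for complex I, 0 of 4 for complex II, 2 of 9 for complex III, 3 of 15 for complex IV, 2 of 18 for complex V, 3 of 46 for the large and 0 of 29 for the small ribosomal subunit, all upward, where 7.38% of all genes were called higher, and whether this differs from the mitochondrial genes was not tested. Of the genes of mitochondrial RNA processing 2 of 29 rose and 1 fell: Grsf1, an RNA granule protein, rose by 0.72 ± 0.19 (edgeR adjusted p = 0.0195), Fastkd2 by 0.86 ± 0.26 (edgeR adjusted p = 0.0364), and Ptcd1 fell by 0.96 on the log2 scale (edgeR adjusted p = 0.0327). None of 18 genes of mitochondrial DNA transcription and replication passed, and Tfam, the transcription and packaging factor of mitochondrial DNA, passed in the Kit comparison of K5- cells (0.88 ± 0.24, edgeR adjusted p = 0.0169). Ppargc1a, a coactivator of mitochondrial biogenesis, averaged 36.5 ± 6.64 CPM (SD, n = 3) in Kit- K5+ libraries and 8.92 ± 4.27 in the Kit- K5- group and rose by 2.04 ± 0.39 (edgeR adjusted p = 0.00306). It is 1 of 11 biogenesis regulators tested. With 1 library left out, 1 to 2 of the 11 rose, where 7.37 to 17.5% of all genes were called in either direction. The median of the 11 was then 0.27 to 0.51. On the epithelial scale the medians of the complex I to V lists in this comparison were -1.57 to -1.17, against 0.67 and 0.26 for the 2 ribosomal RNAs. Neither ribosomal RNA was called on that scale, and every messenger read as a level had a negative value there. In the K5 comparison of Kit+ cells 0 genes of these lists passed, with complex medians of -0.41 to -0.29.

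**Figure D5:**
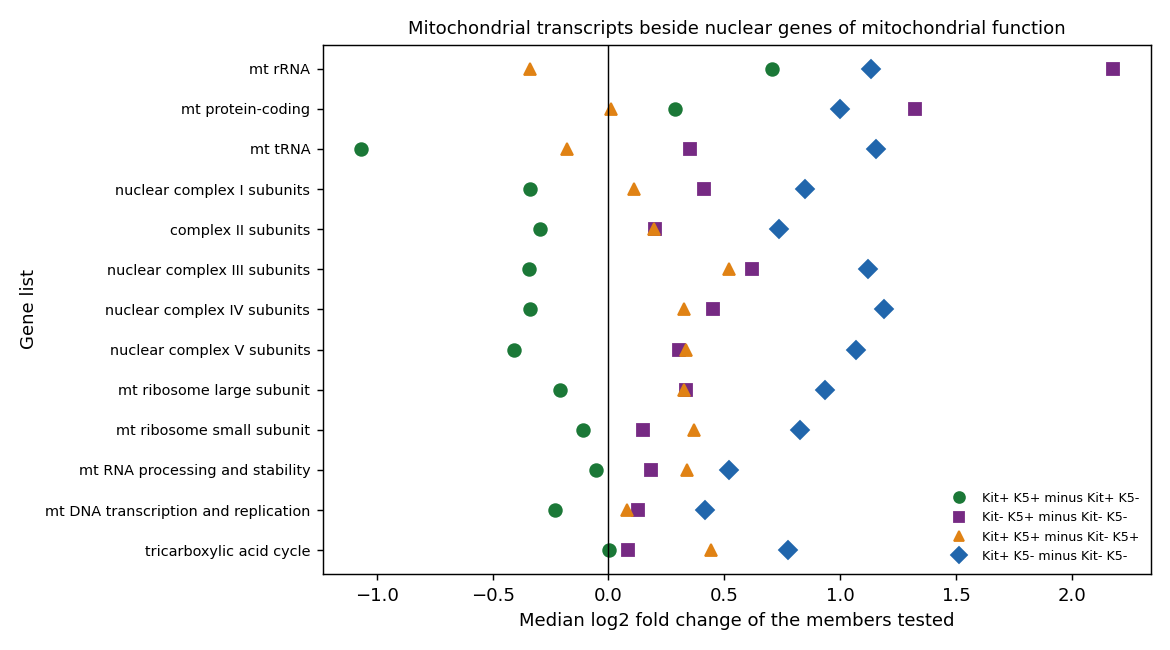
Median log2 fold change of the tested members of each list (rows) in the 4 comparisons (symbols), TMM scale. In Kit- K5+ minus Kit- K5- the mitochondrial ribosomal RNAs (2.18) and messengers (1.32) lie to the right of every nuclear list shown; in Kit+ K5+ minus Kit+ K5- the mitochondrial transfer RNAs lie at -1.07.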

How the data were processed

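Gene counts were measured by RNA-seq in 12 libraries. Per the labels' protocols, the authors aligned single-end 50-base reads with STAR 2.4.2a to GRCm38/mm10 and counted them with featureCounts, version 1.4.6-p3 per the submitters' processing notes, so the deposited values are raw counts per gene, not normalized. Ribosomal RNA removal, strand setting, annotation and multiple matches: not given in the sources used here. Genes were tested with edgeR 4.0.16 (R 4.3.3) quasi-likelihood fits over all 12 libraries by group, after the default low-count filter (17030 genes) with TMM factors, and p-values were adjusted by Benjamini-Hochberg over all genes. Shares and ratios were compared by exact permutation of library labels. The analysis was tested on simulated data. Alternatives were limma 3.58.1, DESeq2 1.42.0, other scalings, no filter, a replicate block, libraries left out, and shares over other totals. Title library numbers 1 to 4, 5 to 8 and 9 to 12 were used as the block: same-run libraries deviated together in the 4 pairwise comparisons (r 0.108 to 0.408 across genes). The members and gene lists were chosen with earlier results of these data known. All ribosomal and protein-coding mitochondrial genes are named, with the 5 transfer RNAs of highest count and any called, and, of other lists, up to 4 called genes with the smallest adjusted p. mt-Tt and mt-Tn were named after their values were seen. Gene positions are from GENCODE M21 (GRCm38), whose symbols matched 39469 of 43280 genes.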

Additional observations from a re-analysis of the deposited data

How the results depend on the processing

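Counts of mitochondrial genes called moved with the fit, as did the share of all genes called, given in parentheses. In the K5 comparison of Kit- cells, 3 in the report (16.5%), the count was 11 with no filter (10.5%), 11 with the replicate block (23.8%), 11 with the block and nuclear scaling (24.1%), 6 with only the groups compared (18.5%), 6 without libraries 9 to 12 (9.73%), 0 without libraries 5 to 8 (3.07%), 1 (lower) when scaled to epithelial genes (67.5%), and 2 to 4 with 1 library left out (7.37 to 17.5%). In the Kit comparison of K5- cells, with 0 in the report (21.3%), it was 11 with no filter (10.7%), 12 with the block (29.2%), 14 with the block and nuclear scaling (29.3%), 2 with DESeq2 (23.5%), 1 with library totals only (19.4%), and 0 to 2 with 1 library left out (11.4 to 20.8%; 2 without Kit+ K5- replicate 1). In the K5 comparison of Kit+ cells 1 gene was called with no filter (0.874%), and for the difference of the K5 effects, with 0 in the report (4.02%), 5 with no filter (5.38%), 4 with the replicate block (8.33%) and 4 with the block and nuclear scaling (8.17%). The fit in the report used no block for this or any other comparison, and the block fits were alternatives. Between same-numbered libraries of the groups in this difference, r was positive in every pair. It was lowest at 0.0928, for Kit+ K5- with Kit- K5+ in numbers 9 to 12. The causes of the moved counts were not tested. Of the shares over the 4 groups, with labels exchanged within the replicate block, the mitochondrial share (2.03, adjusted exact permutation p = 0.0208), its ribosomal share (2.10, 0.0208) and the ratio of ribosomal to protein-coding counts (0.68, 0.0347) passed 0.05. The ribosomal share also passed over the total of nuclear protein-coding and mitochondrial genes (2.10, 0.0499). With 1 library left out the mitochondrial share was 1.69 to 2.30 and the ribosomal share 1.79 to 2.32. Both passed without Kit+ K5- replicate 3 (0.0249 and 0.0171).

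Signs turned with 1 library left out for the transfer RNA share with K5 (-0.75 to 0.22), mt-Rnr2 to mt-Rnr1 with Kit (-0.031 to 0.16), transfer RNA to messenger with Kit (-0.22 to 0.38), complex I with K5 (-0.13 to 0.052) and Kit (-0.0016 to 0.18) and complex V with K5 (-0.19 to 0.34). Over messengers with few nuclear matches, complex III turned to 0.047 with K5 and -0.017 with Kit. Without libraries 5 to 8, mt-Rnr2 turned to 0.11 in the Kit comparison of K5+ cells. On the epithelial scale the K5 comparison of Kit- cells gave -0.15 for mt-Co1, -0.41 for mt-Cytb, -0.77 for mt-Nd1, -0.12 for mt-Nd2, -0.080 for mt-Nd4, -0.49 for mt-Nd5 and -0.68 for mt-Nd6. The Kit comparison of K5- cells gave -0.67 for mt-Rnr1, -0.83 for mt-Rnr2, -0.92 for mt-Co1, -0.80 for mt-Cytb, -0.93 for mt-Nd1, -0.37 for mt-Tl1, -0.54 for mt-Tm, -0.67 for mt-Tf, -0.98 for mt-Tp and -0.093 for mt-Tc, and the difference of K5 effects 0.27 for mt-Rnr2. Scalings to epithelial genes, the block with nuclear scaling, leaving out runs of libraries and few-match messengers were chosen after seeing the data. A count of 0 allows up to 0.219 to 0.537 CPM, by library.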
